A study of Mus musculus with 16 samples.

Results

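The comparison described here asks what changed in the ovary when estrogen receptor β (ERβ) was missing in addition to estrogen receptor α (ERα). Its members were the arrays titled Ex3abERKO, replicates 1 to 4, and those titled Ex3aERKO, replicates 1 to 4, which is 8 of the 16 arrays of the series. Ex3aERKO denotes mice with ERα knocked out, and Ex3abERKO denotes mice without either receptor. The remaining 8 arrays, 4 from control mice that carry a single allele of each receptor and 4 from Ex3bERKO mice (ERβ knocked out), enter as a second setting of ERβ loss. All samples were total RNA of whole ovary from mice aged 1 year. The labels do not explain the prefix Ex3, do not state which alleles of the other receptor the single knockouts carry, and do not tell whether the samples within each group are separate animals. The p-values thus reflect the spread among the samples measured, part or all of which may be technical.

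Estrogen receptors are nuclear receptors that bind estradiol and act on target genes as transcription factors. In the ovary, ERβ is mainly found in granulosa cells, which surround the oocyte and make estradiol by aromatase, while ERα is prominent in theca cells, which make the androgen that aromatase uses. Granulosa cells and the Sertoli cells of the testis come from the same kind of supporting-cell precursor, and theca cells have the steroid-making Leydig cells as their male counterpart. The series concerns the turning of granulosa cells toward another cell type in old ovaries without these receptors. In whole-ovary RNA, fewer cells of a type and less RNA per cell cannot be told apart.

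Levels are log2 of a probe's processed signal divided by the 75th percentile of its array, so 0 is the level of a fairly bright probe. Differences are Ex3abERKO minus Ex3aERKO unless stated. Values after ± are standard errors of limma's model, with n = 4 arrays in each group, and a gene was called when its limma p-value, adjusted by Benjamini-Hochberg over 24441 features, was under 0.05. "Rose" and "fell" are used only of called genes. The signal of the 75th percentile lay between 1211 and 1806 units over the 16 arrays, and 80.4% to 87.6% of spots were well above background. Across probes, arrays of the same group correlated at 0.955 to 0.983 in Ex3aERKO and 0.956 to 0.980 in Ex3abERKO, against 0.932 to 0.971 between those groups. Several arrays stood apart. The mean level of 14 liver genes was 2.68 on Ex3aERKO 2 against -4.41 to -2.97 on the other 15 arrays. The mean of 14 oviduct genes was -0.89 on Ex3abERKO 2, with the other 15 arrays at -4.10 to -2.62. The mean of 9 erythroid genes was -2.17 on control 4 and -2.57 on Ex3abERKO 3, with the other 14 arrays at -4.73 to -3.16. On every slide the control array sat in position 1 and the Ex3aERKO array in position 2, while knockouts of ERβ and of both receptors sat in positions 3 and 4, so position and group cannot be told apart.

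Esr1 encodes ERα, and the brighter of its 2 probes maps to 5343241 to 5343300 on chromosome 10 (build mm7, as for all probes). The gene was at -2.18, -2.19, -1.89 and -3.66 on Ex3aERKO arrays 1 to 4 and -1.86, -1.04, -2.11 and -1.93 on Ex3abERKO arrays 1 to 4, below the group means of -0.10 in control and -0.51 in Ex3bERKO. The difference between the groups without ERα was 0.74 ± 0.38 and was not called (limma adjusted p = 0.270). The other Esr1 probe gave -0.33, of opposite sign, and was not called either. For Esr2, which encodes ERβ (chromosome 12, 74079895 to 74079954), the arrays gave -0.32, -1.07, -1.01 and 1.58 in Ex3aERKO and -1.62, -2.54, -1.61 and -2.53 in Ex3abERKO. The groups did not overlap, and Esr2 fell by 1.87 ± 0.51 on the log2 scale, or 3.65-fold (limma adjusted p = 0.0386). In Ex3bERKO, however, Esr2 averaged 0.32 against -0.11 in control, so this probe did not show a loss there. Whether the probes lie in a part that the knockouts remove is not stated in the labels, so neither is a check of genotype. Without the arrays with the highest mean of liver genes (Ex3aERKO 2), of oviduct genes (Ex3abERKO 2) and of erythroid genes (control 4), called the 3 arrays that stood apart below, the adjusted p of Esr2 was 0.0922. It also missed the threshold without Ex3aERKO 4, its highest array, where the difference was -1.27.

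Of the 24441 features, 1889 (7.73%) were called, 1076 (4.4%) higher and 813 (3.33%) lower where ERβ was also absent. A change of at least 2-fold was measured for 1229 of them, and of at least 4-fold for 378. The 4 arrays of one group lay entirely above or below the 4 of the other for 3395 features (13.9%), among them 1728 of the 1889 called. On the 3 slides that hold both groups, 1827 of the 1889 called features (96.7%) differed in the same direction on each slide. The calls came from these same arrays, so such agreement largely follows from the calls and is not a replication. The count of called features was 843 without the 3 arrays named above, 1107 without Ex3aERKO 4 and 1111 without Ex3aERKO 1. Another background correction (normexp) gave 743, and a model of the 8 arrays alone gave 604.

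Over all features, 4.4% were called higher and 3.33% lower, and the counts of each list below are to be set beside these shares. Of 29 measured genes of Sertoli cell identity and products, 8 rose (Sox9, Sox8, Dmrt1, Cst9, Defb36, Shbg, Etd and Tsx), 2 fell (Rhox5 and Hsd17b3) and 19 were not called, with a median difference of 0.28 against -0.01 over all features. The mean level of this list overlapped between the groups, at -0.44 to -0.06 on the Ex3aERKO arrays and -0.24 to 0.74 on the Ex3abERKO arrays. Of 21 measured granulosa cell genes, 12 fell (Cyp19a1, Fshr, Fst, Inha, Inhba, Nr5a2, Hsd17b1, Bmpr1b, Gja1, Grem1, Irx3 and Nap1l5), 1 rose (Fam110c) and 8 were not called, with a median of -1.76 and list means of 1.49 to 2.34 against 0.38 to 1.16.

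Sox9, the transcription factor that sets and keeps the Sertoli fate in the testis, was at -1.27, -0.79, -0.92 and -2.37 on the Ex3aERKO arrays and at 0.08, -0.05, 1.09 and 0.96 on the Ex3abERKO arrays. Every Ex3abERKO array was above every Ex3aERKO array. Sox9 (chromosome 11, 112894739 to 112894798) rose by 1.86 ± 0.37, or 3.63-fold (limma adjusted p = 0.00892). Of its other 2 probes, 1 gave 1.75 and 1 gave -0.10, the mean of all its probes gave 1.17, and the call was lost in the model of the 8 arrays (adjusted p = 0.0547). Group means ran from -2.44 in control and -2.01 in Ex3bERKO through -1.34 in Ex3aERKO to 0.52 in Ex3abERKO. Its relative Sox8 was dim, at -4.20, -4.60, -4.22 and -5.63 in Ex3aERKO and -3.25, -3.63, -2.97 and -2.92 in Ex3abERKO. It rose 2.78-fold (limma adjusted p = 0.0120), again without overlap. Dmrt1, a factor that holds Sertoli cells in the male state, was not well above background on any Ex3aERKO array and was so on all 4 Ex3abERKO arrays, at -5.43, -6.28, -5.25 and -4.93. This gives a difference of at least 3.06-fold (limma adjusted p = 0.000965), a bound taken against the dimmest signal that the arrays could tell from background. Under normexp, which adds an offset to all signals, Dmrt1 and Sox8 were no longer called (adjusted p = 0.813 and 0.482).

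Among the products of Sertoli cells, Cst9, a cystatin first described from fetal testis, rose from -0.94, -1.80, -1.98 and -1.77 to 2.06, 1.57, 4.32 and 3.06, a difference of 4.38 ± 0.51 (20.8-fold, limma adjusted p = 0.000429). Etd, a gene of early testis differentiation on the X chromosome, rose from -3.29, -4.34, -3.21 and -3.90 to 1.30, 0.48, 3.53 and 2.02, which is 45.8-fold (limma adjusted p = 7.07e-05). Defb36, a defensin of the male tract and testis, rose 11.1-fold, from a mean of -1.95 to 1.53 (limma adjusted p = 0.000574). In all 3 genes the Ex3abERKO arrays were above every Ex3aERKO array, and Ex3abERKO 3 was the highest array. The means of Cst9 and Etd in Ex3aERKO, -1.62 and -3.68, were near those in control, -1.67 and -4.18. Shbg, the sex hormone-binding globulin, rose by 2.68 ± 0.45 (limma adjusted p = 0.00360), and the testis gene Tsx by 3.71 ± 0.54 (limma adjusted p = 0.00145).

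Not all genes of the list followed. Rhox5, an androgen-regulated homeobox gene of Sertoli cells, fell with the smallest standard error of the named Sertoli genes. It was at 1.23, 0.27, 0.43 and 0.69 in Ex3aERKO and at -2.78, -3.14, -2.72 and -3.21 in Ex3abERKO, a fall of 3.62 ± 0.22 on the log2 scale (12.3-fold, limma adjusted p = 1.92e-06). The Ex3abERKO mean of -2.96 was also below control, at -2.04, and Ex3bERKO, at -1.44. Amh, the anti-Müllerian hormone of immature Sertoli cells and of granulosa cells in growing follicles, was at -3.15, -2.69, -3.82 and -4.02 against -3.83, -3.29, -3.98 and -3.33. The groups overlapped, and the difference of -0.19 ± 0.45 was not called (limma adjusted p = 0.873). Both groups had lower Amh means, -3.42 and -3.61, than control and Ex3bERKO, -1.71 and -1.40.

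Among granulosa genes that fell were Inhba and Inha, which encode activin and inhibin subunits, and the follicle-stimulating hormone receptor. Inhbb, another subunit gene of the list, was measured and was not called. Inhba, the shared subunit of activin A and inhibin A, went from 6.54, 5.61, 5.85 and 6.67 to 3.90, 3.59, 3.28 and 1.95. It fell by 2.99 ± 0.43 (7.93-fold, limma adjusted p = 0.00136; chromosome 13, 15394279 to 15394338). Inha, the α subunit of inhibin, fell 3.44-fold from a mean of 6.09 to 4.31 (limma adjusted p = 0.00905). Fst, which encodes the activin-binding protein follistatin, fell 4.43-fold from 1.94 to -0.20 (limma adjusted p = 0.0115). Inhba, Inha and Fst thus all had lower signal in Ex3abERKO, with no overlap between arrays. Fshr, through which the pituitary drives granulosa growth, was at 0.83, -0.37, -0.32 and 1.44 in Ex3aERKO and at -1.53, -2.25, -2.25 and -1.65 in Ex3abERKO. It fell 4.98-fold (limma adjusted p = 0.00303; chromosome 17, 87292342 to 87292401).

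Nr5a2, a nuclear receptor that granulosa cells need for ovulation, was at 3.44, 2.22, 2.94 and 3.45 in Ex3aERKO and at 1.27, 0.11, 0.26 and -0.12 in Ex3abERKO. It fell by 2.63 ± 0.37 (6.21-fold, limma adjusted p = 0.00116), while control and Ex3bERKO averaged 3.50 and 2.85. Gja1, the main connexin of granulosa gap junctions, fell 3.42-fold (limma adjusted p = 0.00830). Cyp19a1, the aromatase gene, was at 5.05, 4.18, 4.49 and 5.23 against 3.1, 2.51, 3.35 and 1.71. The arrays did not overlap and the difference was -2.07 ± 0.60, at an adjusted p of 0.0484 in limma. That call was lost under 6 of 13 other settings, normexp, the slide as a block and median scaling among them, with adjusted p up to 0.116, and without any of 12 of the 16 arrays in turn (up to 0.129). Foxl2, the factor that keeps granulosa cells female, was at -1.99, -2.39, -2.50 and -2.36 against -2.52, -2.50, -2.64 and -2.31. It overlapped between the groups and was not called (-0.18 ± 0.15, limma adjusted p = 0.547). Rspo1 (0.89 ± 0.27, limma adjusted p = 0.0566) and Wnt4 (0.49 ± 0.35, limma adjusted p = 0.465), further genes of the female pathway, and Kitl (-0.38 ± 0.29, limma adjusted p = 0.497), the ligand by which granulosa cells signal to oocytes, were not called either.

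**Figure D1:**
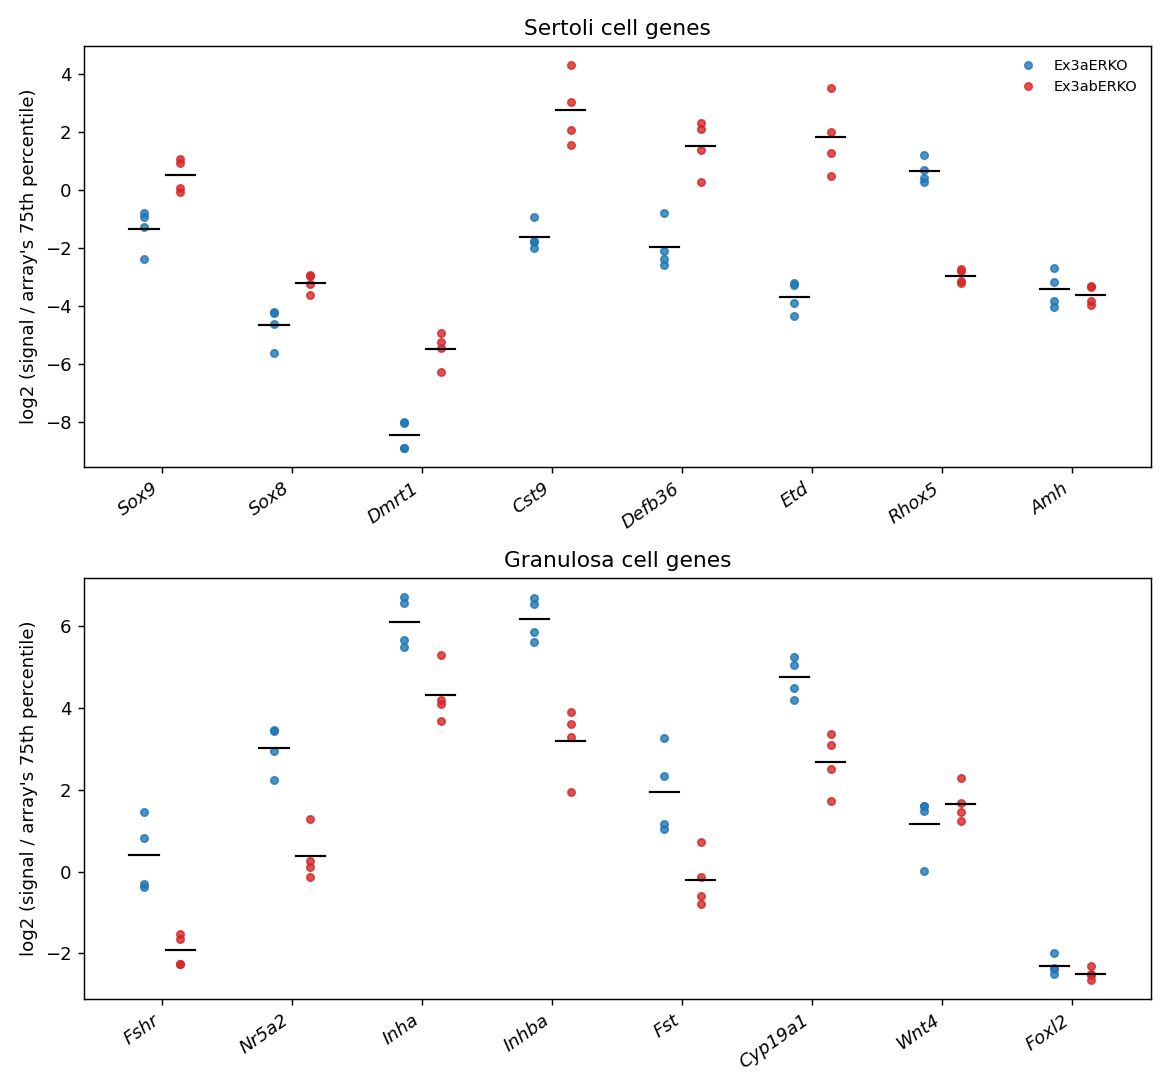
Levels of 8 Sertoli cell genes (top) and 8 granulosa cell genes (bottom) on each array, as log2 of signal over the array's 75th percentile; points are arrays, 4 in each of Ex3aERKO (blue) and Ex3abERKO (red), and bars are group means. Except for Amh, Wnt4 and Foxl2, the points of both groups do not overlap, with Rhox5 lower in Ex3abERKO while the first 6 Sertoli genes are higher.

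Of 14 genes that supporting cells of both sexes use, 3 fell and none rose, against 3.33% of all features called lower. Nr5a1, the steroidogenic factor of gonad and adrenal, was at -1.33, -1.76, -1.40 and -0.73 in Ex3aERKO and at -2.69, -3.17, -3.58 and -2.94 in Ex3abERKO, a fall of 1.79 ± 0.25 (3.46-fold, limma adjusted p = 0.00116). Gata4, a zinc-finger factor of the gonads, fell 2.98-fold from a mean of -1.37 to -2.94 (limma adjusted p = 0.00342). Hsd11b2, which inactivates glucocorticoid, fell 2.93-fold (limma adjusted p = 0.00421). In each of the 3, Ex3bERKO and control means lay above every Ex3abERKO array. Wt1, which Sertoli and granulosa cells share with the surface epithelium, was not called (0.71 ± 0.32, limma adjusted p = 0.217), and neither was Amhr2, the receptor for anti-Müllerian hormone (-0.34 ± 0.21, limma adjusted p = 0.394). The count of Sertoli genes that rose was 8 without the 3 arrays that stood apart, 6 in the model of the 8 arrays and 5 under normexp. Of the granulosa list, 4 fell in the model of the 8 arrays, 7 under normexp, 9 without the 3 arrays, 6 without Ex3aERKO 1, 7 without Ex3aERKO 4 and 7 without Ex3abERKO 4.

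Of 19 measured theca and Leydig cell genes, 9 fell (Cyp17a1, Hsd3b6, Cyp11a1, Lhcgr, Star, Srd5a1, Fdxr, Hhip and Aldh1a1), 1 rose (Por, the electron donor of microsomal P450 enzymes) and 9 were not called. The median difference of the list was -1.12, and 3.33% of all features were called lower. Mean list levels were 2.19 to 2.59 on Ex3aERKO arrays and 1.04 to 1.39 on Ex3abERKO arrays, and the control and Ex3bERKO arrays lay at 2.28 to 2.59. Without the 3 arrays that stood apart, 5 fell.

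The luteinizing hormone receptor Lhcgr, which drives theca and Leydig cells, was at 0.57, -0.14, -0.91 and -1.17 in Ex3aERKO and at -2.43, -4.21, -3.94 and -4.59 in Ex3abERKO. It fell by 3.38 ± 0.57 (10.4-fold, limma adjusted p = 0.00352; chromosome 17, 87049193 to 87049252). Cyp11a1, which cuts the cholesterol side chain in the first enzymatic step, fell 2.92-fold, from 4.67, 4.50, 4.40 and 4.05 to 3.68, 2.50, 2.76 and 2.50 (limma adjusted p = 0.00995). Star, which brings cholesterol to that enzyme, was at 3.33, 4.02, 3.26 and 3.27 against 2.42, 1.5, 2.02 and 1.75. These arrays did not overlap, but its adjusted p of 0.0472 exceeded the threshold under 6 of 13 other settings, up to 0.200 (limma), and without any of 12 of the 16 arrays in turn, up to 0.115. The call of Cyp11a1 was lost without the 3 arrays that stood apart (adjusted p = 0.0794).

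Cyp17a1, whose enzyme makes androgen precursors from progestins, was at 3.54, 3.58, 3.81 and 3.08 in Ex3aERKO and at 0.64, 0.58, 0.57 and 0.28 in Ex3abERKO. It fell by 2.98 ± 0.38 (7.91-fold, limma adjusted p = 0.000749; chromosome 19, 46564738 to 46565351). Group means were 0.74 in control, 3.50 in Ex3aERKO, 3.50 in Ex3bERKO and 0.52 in Ex3abERKO. Hsd17b3, the testicular enzyme that makes testosterone, was at 1.17, 2.37, 1.97 and 1.82 in Ex3aERKO against -4.28, -2.01, -1.70 and -2.19 in Ex3abERKO. It fell 20.8-fold (-4.38 ± 0.80, limma adjusted p = 0.00542), with a mean of -4.42 in control and levels of -2.31, 1.25, 1.17 and -2.63 on the Ex3bERKO arrays. Ex3abERKO 1 was the lowest array for Hsd17b3, close to the control level, and the other 3 lay between the control and Ex3aERKO levels.

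Insl3, a peptide hormone of theca and Leydig cells, was 6.74, 6.72, 6.73 and 6.49 in Ex3aERKO and 1.89, 4.49, 2.63 and 3.98 in Ex3abERKO, without overlap. Its difference of -3.42 ± 1.18 missed the threshold in the 16-array model (limma adjusted p = 0.0956), and the 4 Ex3bERKO arrays ranged from -0.41 to 6.23. In the model of the 8 arrays compared, Insl3 passed, as it did with the slide as a block. The probe of Jak3, at chromosome 8, 70157730 to 70157789, lies next to that of Insl3, at 70157953 to 70158012. It gave -3.55 ± 1.18 (limma adjusted p = 0.0849), so the signals of these neighbours may not be separate. The other Jak3 probe gave -0.40 and was not called. Ihh and Hhip belong to the hedgehog pathway, by which granulosa cells signal to theca. Ihh, the ligand, was -2.36, -1.74, -2.36 and 2.33 in Ex3aERKO, with Ex3aERKO 4 far above the rest, and -4.48, -4.30, -4.33 and -4.14 in Ex3abERKO. It fell by 3.28 ± 0.76 (limma adjusted p = 0.0176), and by 2.16 without Ex3aERKO 4 (adjusted p = 0.00162). Hhip, a binding protein and target of the pathway, fell 5.13-fold (limma adjusted p = 0.0134) and was well above background on only 2 of 4 Ex3abERKO arrays.

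**Figure D2:**
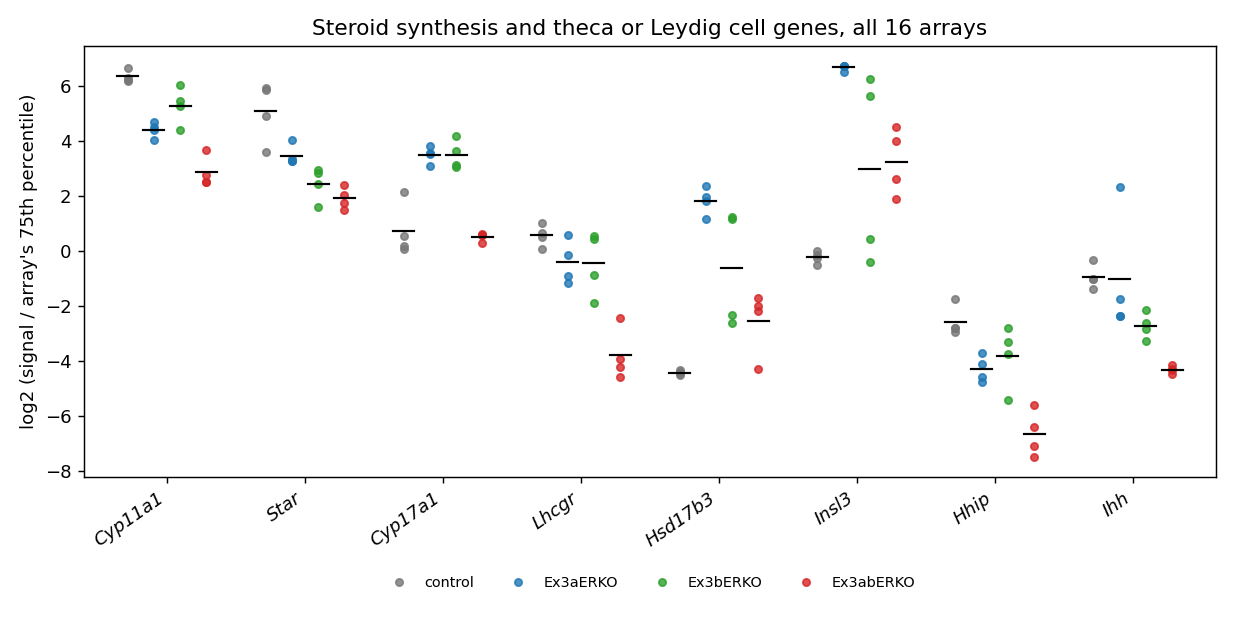
Levels of 8 genes of steroid synthesis, theca or Leydig cells and hedgehog signalling on all 16 arrays, as log2 of signal over the array's 75th percentile; points are arrays and bars are group means. Cyp17a1 has a mean of 0.52 in Ex3abERKO and 3.50 in both single knockouts, and the Ex3bERKO arrays of Insl3 and Hsd17b3 fall into a higher and a lower pair.

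In the estrogen response list and in the androgen-regulated list, 2 genes each fell and none rose, against 3.33% of all features called lower. The estrogen response list had a median of 0.31. Its means overlapped, at -0.63 to 0.23 on the Ex3aERKO arrays and -0.68 to 0.11 on the Ex3abERKO arrays. Of 18 estrogen response genes, Greb1 fell 3.69-fold (limma adjusted p = 0.00636), from 4.37, 3.00, 4.36 and 3.90 to 2.76, 1.48, 2.40 and 1.46, and Areg, an epidermal growth factor ligand, fell 6.94-fold (limma adjusted p = 0.0332). Areg was above background on all Ex3aERKO arrays, at -2.28 to -4.93, and on only 2 Ex3abERKO arrays. Its call was lost without any of 6 arrays in turn. Pgr, the progesterone receptor, was on the array but did not pass the filter on dim probes. Of 9 androgen-regulated genes, Rhox5 and Fkbp5 fell, with a list median of -0.53. The list means did not overlap, at 0.59 to 0.83 on the Ex3aERKO arrays and -0.02 to 0.30 on the Ex3abERKO arrays. Fkbp5, a co-chaperone of steroid receptors, fell 1.71-fold (limma adjusted p = 0.0187) and had also fallen in Ex3bERKO against control (-1.57, adjusted p = 0.00113). In Ex3abERKO against Ex3aERKO its other 2 probes gave -0.61 and -0.14 and were not called. That call was lost with the mean of its probes and without the 3 arrays that stood apart (limma adjusted p up to 0.113).

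Of 24 cholesterol synthesis genes, 6 fell, Fdft1, Lss, Cyp51, Nsdhl and Tm7sf2 among them, and none rose, against 3.33% of all features called lower. The median of the list was -0.75. In Ex3bERKO against control, 5 genes of this list were called lower, with a median of -0.84, and the interaction was called for 1. Fdft1, squalene synthase, was 2.72, 2.28, 1.96 and 2.43 in Ex3aERKO and 1.63, 0.70, 0.25 and 0.51 in Ex3abERKO, 2.98-fold lower (limma adjusted p = 0.00422), although its second probe had the opposite sign and did not pass. Tm7sf2, a sterol reductase, fell 3.58-fold (limma adjusted p = 0.0141). The count fell to 1 without the 3 arrays that stood apart, to 3 in the model of the 8 arrays and to 3 without Ex3aERKO 1 or Ex3abERKO 4. Prlr, the prolactin receptor of luteal cells, fell 3.32-fold (limma adjusted p = 0.00487), while Rgcc, a cell cycle regulator of the luteal list, rose 3.67-fold (limma adjusted p = 0.00477), from a mean of 0.60 to 2.48, against 3.81 in control.

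Signalling pathways showed mixed calls. Of 28 Wnt pathway genes, 6 rose, against 4.4% of all features, and none fell. Of the 6, 5 encode secreted antagonists or modulators (Dkk2, Dkk3, Sfrp1, Wif1 and Sostdc1), with the receptor Fzd1 the other. Sostdc1, which also binds bone morphogenetic proteins, was -8.81, -6.68, -7.85 and -6.63 in Ex3aERKO, above background on only 2 of these arrays, and -2.62, -2.63, -4.99 and -2.27 in Ex3abERKO. It rose by 4.37 ± 0.66 (limma adjusted p = 0.00196). Dkk3 rose 3.60-fold (limma adjusted p = 0.00438), from -1.30, -1.36, -1.32 and -2.70 to 0.72, 0.38, -0.59 and 0.20. Sfrp1 rose 3.97-fold (limma adjusted p = 0.0311), with Ex3aERKO 4 at -0.48 and the others at 1.67 to 2.05. The Wnt count was 3 without Ex3abERKO 2 or Ex3abERKO 4, 4 without the 3 arrays that stood apart, and 2 under normexp or in the model of the 8 arrays.

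In the transforming growth factor β, bone morphogenetic protein and activin pathway, 3 of 35 measured genes rose (Tgfb3, Tgfbr2 and Bmp7) and 7 fell (Bmp2, Bmp3, Bmpr1b, Inha, Inhba, Fst and Grem1), most of the latter also in the granulosa list. Among all features tested, 4.4% were called higher and 3.33% lower. In the model of the 8 arrays none of the list rose and 3 fell, and without the 3 arrays that stood apart 1 rose and 6 fell. Bmp3 was -1.51, -1.99, -1.81 and 1.24 in Ex3aERKO and -4.94, -5.53, -6.12 and -4.30 in Ex3abERKO, 18.4-fold lower (limma adjusted p = 0.00205). Bmp2, a ligand of granulosa cells, fell 3.40-fold (limma adjusted p = 0.00506). Hey2, a target of Notch, fell 4.62-fold, from -1.25, -2.03, -1.37 and -0.45 to -3.59, -3.33, -3.02 and -3.98 (limma adjusted p = 0.00142), the only call among 18 Notch genes. Of 16 retinoic acid genes, 3 were called. Cyp26a1, which breaks down retinoic acid, rose 6.55-fold (limma adjusted p = 0.000429), from -5.23, -3.67, -4.60 and -5.19 to -2.34, -2.35, -1.23 and -1.92. Aldh1a3, which makes it, rose 3.74-fold (limma adjusted p = 0.00395), and Aldh1a1, which also makes it, fell 2.17-fold from a much brighter mean of 7.22 (limma adjusted p = 0.0140).

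Of 14 insulin-like growth factor genes, 2 fell, 1 rose and 11 were not called, with a median of 0.21. Over all features, 3.33% were called lower and 4.4% higher. The falls were those of Igfbp2 (3.25-fold, limma adjusted p = 0.00971) and the insulin receptor substrate Irs1 (2.38-fold, limma adjusted p = 0.0140). Both calls were lost in the model of only the arrays compared (limma adjusted p = 0.057 and 0.070). The call of Irs1 was also lost without the 3 arrays that stood apart (limma adjusted p = 0.058). The rise was that of Igf2r (1.59-fold, limma adjusted p = 0.0380). Its call was lost under 7 of 13 other settings and without any of 9 arrays in turn. Of 14 hedgehog genes, Gli3, a transcription factor of the pathway, rose 1.86-fold (limma adjusted p = 0.0108) beside the falls of Ihh and Hhip. Among 19 prostaglandin genes, 4 rose (Hpgds, Tbxas1, Ptger2 and Ptgir) and the synthase Ptges2 fell 1.71-fold (limma adjusted p = 0.0120). The other 2 probes of Tbxas1 gave 1.07 and -1.02, and its call was lost with the mean of its probes. Hpgds, the hematopoietic prostaglandin D synthase, rose 2.46-fold (limma adjusted p = 0.0230). No prostaglandin gene was called higher without Ex3aERKO 1, without Ex3aERKO 4 or without the 3 arrays that stood apart.

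Of 21 lymphocyte markers, 7 rose, Cd2, Cd5, Ms4a1, Cd79b and Jchain among them, and none fell, against 4.4% of all features called higher. The median of the list was 1.09. The mean list level was -2.15 to -1.42 on the Ex3aERKO arrays and -1.01 to 0.46 on the Ex3abERKO arrays, which did not overlap. Ms4a1, the B cell antigen CD20, was at -2.60, -1.60, -0.94 and -2.83 against 0.63, 1.06, -0.36 and 2.61. It rose 7.88-fold (limma adjusted p = 0.0112), and Ex3abERKO 4 was the highest array. Cd5 of T cells rose 2.81-fold (limma adjusted p = 0.00752). Igkv3-12, an immunoglobulin light chain segment, rose 38.3-fold, from -5.40, -3.04, -5.35 and -4.22 to 0.37, 2.10, -1.68 and 2.24 (limma adjusted p = 0.00286). Glycam1, a mucin-like glycoprotein of lymph node vessels, rose 42.5-fold to a mean of -1.12 (limma adjusted p = 1.43e-05), with signal above background on each Ex3abERKO array but only 2 of 4 Ex3aERKO arrays. The number of lymphocyte markers called was 0 without the 3 arrays that stood apart, 1 in the model of the 8 arrays, 3 under normexp, 2 without Ex3aERKO 1, Ex3aERKO 4 or Ex3abERKO 2, 3 without Ex3abERKO 4 and 4 without Ex3abERKO 1.

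Of 22 macrophage markers, 3 rose (Adgre1, Trem2 and Marco) and none fell, against 4.4% of all features called higher. The median of the list was 0.92. Trem2, a receptor of lipid-handling macrophages, was at 4.23, 4.83, 5.05 and 3.98 in Ex3aERKO and at 5.92, 5.77, 6.32 and 6.28 in Ex3abERKO, 2.92-fold higher (limma adjusted p = 0.0201). The macrophage mean was 2.29 to 3.33 in Ex3aERKO and 3.61 to 3.78 in Ex3abERKO, where the 4 arrays were close together. The count of called markers ranged from 0, without Ex3aERKO 4, to 6, without Ex3bERKO 2 or Ex3bERKO 4, which are not in the comparison and act through the shared estimate of spread. It was 1 without Ex3aERKO 1 or Ex3abERKO 4, 5 without Ex3aERKO 3, 1 in the model of the 8 arrays and 0 without the 3 arrays that stood apart. The call of Adgre1 was lost under 7 of 13 other settings. H2-Oa was the only one of 10 MHC class II genes called (2.71-fold higher, limma adjusted p = 0.0260), with list means of 0.0884 to 0.88 in Ex3aERKO and 0.50 to 2.19 in Ex3abERKO, which overlap, and none of 24 interferon response genes was called.

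Of 22 stroma and matrix markers, 7 rose (Col1a1, Col5a1, Col6a3, Pdgfrb, Sparc, Mgp and Dpt) and none fell, against 4.4% of all features called higher. The median of the list was 0.84. Col1a1, a chain of type I collagen, was at 3.48, 3.49, 3.23 and 2.65 against 5.99, 5.09, 4.48 and 4.27, 3.34-fold higher (limma adjusted p = 0.00968). Its other 2 probes gave 0.82 and 1.06 and were not called. The call of Col1a1 was lost with the mean of its probes, in the model of the 8 arrays and without the 3 arrays that stood apart (limma adjusted p up to 0.0662). The other probe of Col6a3 gave 0.05 and was not called. Pdgfrb, a receptor of stromal cells and pericytes, rose 1.83-fold (limma adjusted p = 0.00418), to a mean of 2.43 that was below the control mean of 2.71. Mmp3, a protease that cuts matrix, rose 30.9-fold, from -7.17, -6.57, -6.38 and -5.85 to -0.27, -1.56, -2.81 and -1.53 (limma adjusted p = 0.00509), and was above background on 3 of 4 Ex3aERKO arrays. The stroma count was 2 without the 3 arrays that stood apart, 4 under normexp or in the model of the 8 arrays, 3 without Ex3aERKO 4 and 4 without Ex3aERKO 1, Ex3aERKO 3 or Ex3abERKO 1. No gene was called among 16 endothelial or 16 surface epithelium markers, and of 11 smooth muscle markers only Synpo2 rose (2.40-fold, limma adjusted p = 0.00611). The other 3 probes of Synpo2 gave 1.28, 0.24 and 0.29. Its call was lost under normexp, with the mean of its probes and in the model of the 8 arrays (limma adjusted p up to 0.0871).

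Of 15 adipocyte markers, 4 rose (Adipoq, Cidec, Retn and Cfd), against 4.4% of all features, and 2 did so under normexp. The call of Cidec was lost under 5 of 13 other settings and without any of 10 arrays in turn, and its direction was the same on 2 of the 3 shared slides. Cfd, the complement factor adipsin, was at -6.02, -1.35, -2.19 and -3.38 in Ex3aERKO and at 3.21, 1.71, 1.28 and 3.31 in Ex3abERKO, 49.1-fold higher (limma adjusted p = 0.00670). Adipoq, the adipocyte hormone adiponectin, was at -5.93, -3.30, -2.90 and -6.03 against 1.10, 0.18, -1.03 and 1.26, 30.3-fold higher (limma adjusted p = 0.00940). Slc7a10, an amino acid transporter found in fat, rose with them by 4.64 ± 0.86 (limma adjusted p = 0.00569), being above background on a single Ex3aERKO array. Ex3aERKO had the lowest group means of Cfd and Adipoq, at -3.24 and -4.54. Control means of 1.43 and -0.37 were nearer to Ex3abERKO, at 2.38 and 0.38. Ex3bERKO averaged 0.40 and -1.84, with Ex3bERKO 3 at -2.47 and -4.19, within the range of the Ex3aERKO arrays. The mean of the list was -2.47 to -0.99 in Ex3aERKO and -0.98 to 0.34 in Ex3abERKO. It was -1.45 to 0.07 in control and -2.29 to -0.56 in Ex3bERKO, both of which overlapped Ex3aERKO. The amount of fat around the ovaries is not given in the labels, and its part in these differences was not tested.

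**Figure D3:**
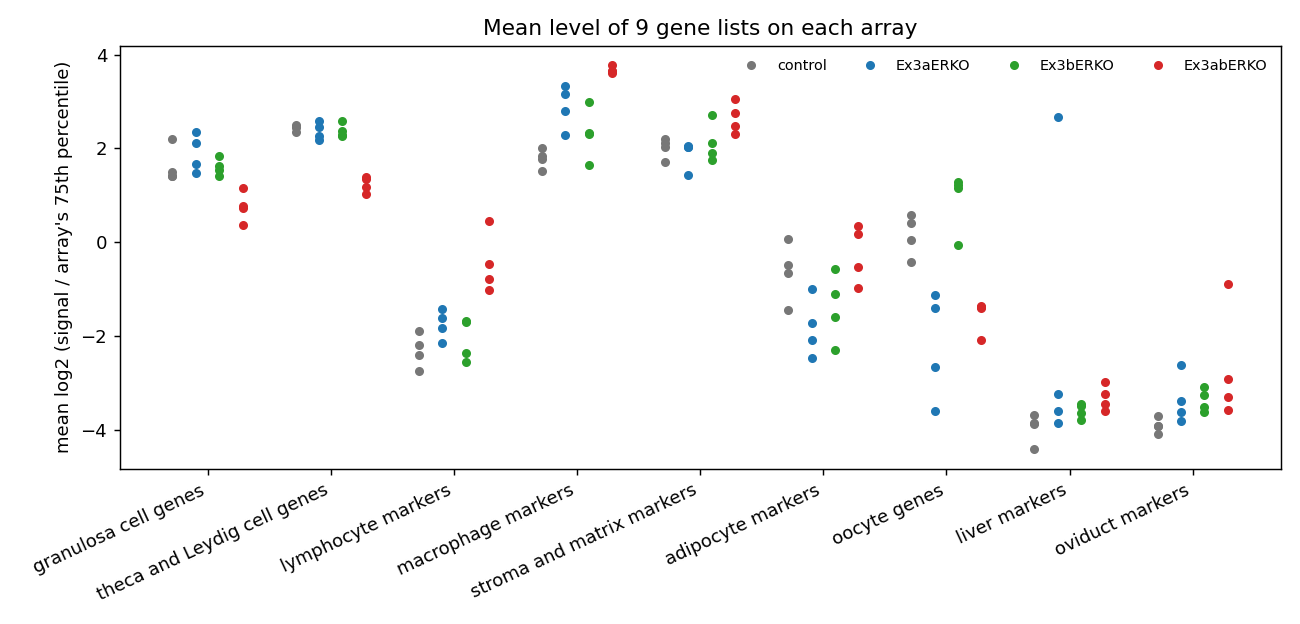
Mean level of 9 gene lists on each of the 16 arrays, as the mean of log2 of signal over the array's 75th percentile; each point is an array, coloured by group. Granulosa and theca or Leydig means are lowest on the 4 Ex3abERKO arrays and lymphocyte, macrophage and stroma means are mostly highest there, while single points show the liver genes of Ex3aERKO 2 and the oviduct genes of Ex3abERKO 2.

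None of 23 oocyte genes was called. Their list mean was -3.59, -2.65, -1.39 and -1.12 on the Ex3aERKO arrays in rising order and -2.09 to -1.36 in Ex3abERKO, against -0.42 to 0.57 in control. No gene was called among 20 oxidative phosphorylation or 14 oviduct genes, 1 of 30 cell cycle genes rose (Pcna, 1.42-fold, limma adjusted p = 0.0409, lost under 6 of 13 other settings and without any of 13 arrays in turn), and 1 of 20 tight junction genes rose (Jam2, 2.77-fold, limma adjusted p = 0.00478). Of 21 immediate early genes, which respond to handling of tissue, Ier3 rose 2.58-fold (limma adjusted p = 0.0175). Of 9 erythroid markers Tal1 rose (2.25-fold, limma adjusted p = 0.00623). With 4.4% of all features called higher, 1 call in a list of such a size is not read as a result about the list. The liver gene Apoc3 fell (-3.36 ± 0.82, limma adjusted p = 0.0219), with Ex3aERKO 2 at 0.85 and the other Ex3aERKO arrays at -3.92 to -1.09, and was not called without the 3 arrays that stood apart (adjusted p = 0.0760).

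**Figure D4:**
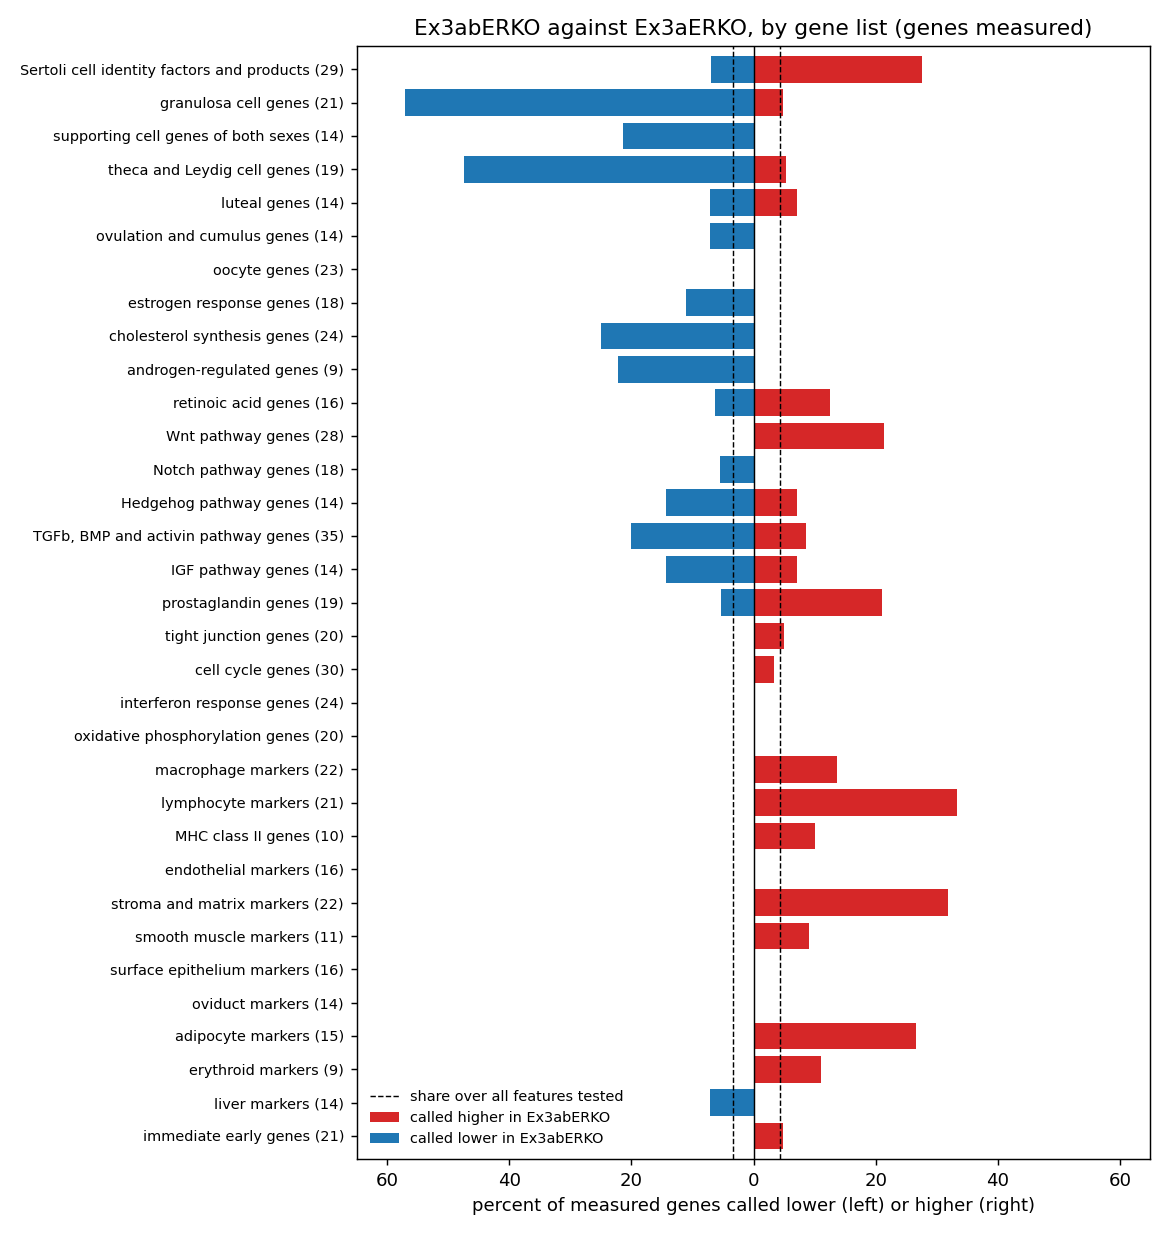
Percent of the measured genes of each of 33 lists called lower (left, blue) or higher (right, red) in Ex3abERKO against Ex3aERKO, with the number measured in brackets; dashed lines mark the share over all 24441 features, 3.33% lower and 4.4% higher. Bars to the left are longest for granulosa genes (12 of 21) and theca and Leydig genes (9 of 19), and bars to the right for lymphocyte (7 of 21) and stroma markers (7 of 22).

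The named genes with the largest rises also included Cstdc1, a cystatin relative beside Cst9, at -4.86, -5.99, -4.72 and -5.81 in Ex3aERKO and -0.36, -1.14, 2.38 and 0.31 in Ex3abERKO (49.9-fold, limma adjusted p = 0.000120). Its neighbour Cstdc2 went the other way, from 3.54, 2.42, 1.5 and 3.33 to -2.25, -2.12, -1.52 and -2.95, a difference of -4.91 ± 0.87 (limma adjusted p = 0.00459). Probes for Cst9, Cstdc1 and Cstdc2 lie in the same stretch of chromosome 2, at 148579465, 148524260 and 148587654. Vsig1, an adhesion protein, rose by 5.24 ± 0.71 (limma adjusted p = 0.000914), the casein gene Csn1s2a by 4.82 ± 0.65 (limma adjusted p = 0.00094) and the X-linked Ott by 4.8 ± 0.59 (limma adjusted p = 0.000574). Reg3g, an antimicrobial lectin, was not above background on any Ex3aERKO array and was at -3.47, -4.18, -2.12 and -3.76 in Ex3abERKO, at least 13.1-fold higher (limma adjusted p = 1.43e-05). Vsig1, Csn1s2a and Ott were above background on 2 or 3 of the 4 Ex3aERKO arrays and on all 4 Ex3abERKO arrays.

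The largest fall among the named genes was that of Klhl31, an adaptor of ubiquitin ligases, from 0.13, 0.11, -0.31 and 2.41 to -5.44, -3.96, -4.84 and -3.98 (35.3-fold, limma adjusted p = 0.000283). Ccdc3, a secreted protein, fell 30.4-fold (limma adjusted p = 0.000859), the metallophosphoesterase Mpped2 22.3-fold (limma adjusted p = 0.000896) and the protease inhibitor Mug2 17.6-fold (limma adjusted p = 0.00196). In Klhl31, Ccdc3, Mpped2 and Mug2 alike, Ex3aERKO 4 was the highest array. Control and Ex3bERKO means of Klhl31, -0.19 and 0.48, were near that of Ex3aERKO, 0.58, and far from Ex3abERKO, -4.56. Ibsp, bone sialoprotein, was above background on all Ex3aERKO arrays, at -6.01 to -1.71, and on no Ex3abERKO array, at least 7.84-fold lower (limma adjusted p = 0.00742). Bpifb4 fell 17.8-fold (limma adjusted p = 0.00194), with 3 values in Ex3abERKO because the spot of replicate 1 was marked as an outlier; only 1 of the 3 was above background, and the call was lost under normexp (adjusted p = 0.0582). Thbs4, a thrombospondin, fell 25.2-fold (limma adjusted p = 0.000421). Probes of gene families, such as those of Igkv3-12, Ott, Mug2, the cystatins and the defensins, may read more than 1 member.

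Defb8 and Defb7, defensin genes near each other on chromosome 8, were bright in Ex3aERKO alone. Defb8 was at 0.78, 1.38, 0.31 and 0.51 in Ex3aERKO and at -5.36, -3.44, -2.22 and -3.63 in Ex3abERKO, with means of -6.14 in control and -6.00 in Ex3bERKO. It fell 21.2-fold (limma adjusted p = 0.00416). Defb7, chosen after its values were seen, was at -2.33, -1.54, -3.29 and -2.89 against -8.88, -6.63, -4.29 and -6.62 (17.1-fold, limma adjusted p = 0.00478), being above background on 2 Ex3abERKO arrays. Bhmt, an enzyme of homocysteine metabolism also chosen in this way, fell by 3.46 ± 0.74, from 2.63, 2.49, 1.99 and 1.61 to -2.61, -0.01, -1.81 and -0.69 (limma adjusted p = 0.0118). The 250 bases before the start of each of these 3 genes hold the exact site CAAGGTCA of the NR5A receptors Nr5a1 and Nr5a2, both of which fell in the same comparison. Among the other named genes, Amhr2, which was not called (-0.34), also holds it, so the display of genes that fell is a choice made after their values were seen. The sequences, from RefSeq on the build GRCm38.p6, are printed 5′ to 3′ on the gene's strand with the site in capitals.
Defb8 (chr8:19447607-19447856, minus strand): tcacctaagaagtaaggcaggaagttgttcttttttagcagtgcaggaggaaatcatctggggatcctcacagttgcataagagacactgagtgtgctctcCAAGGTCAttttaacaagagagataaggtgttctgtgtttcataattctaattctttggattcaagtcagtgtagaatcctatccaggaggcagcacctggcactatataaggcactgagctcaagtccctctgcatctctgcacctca
Defb7 (chr8:19494847-19495096, plus strand): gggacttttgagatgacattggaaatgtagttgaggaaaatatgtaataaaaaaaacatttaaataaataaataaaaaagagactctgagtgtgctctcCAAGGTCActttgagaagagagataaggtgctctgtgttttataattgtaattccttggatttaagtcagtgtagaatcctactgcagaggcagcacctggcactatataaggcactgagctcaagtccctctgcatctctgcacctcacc
Bhmt (chr13:93637759-93638008, minus strand): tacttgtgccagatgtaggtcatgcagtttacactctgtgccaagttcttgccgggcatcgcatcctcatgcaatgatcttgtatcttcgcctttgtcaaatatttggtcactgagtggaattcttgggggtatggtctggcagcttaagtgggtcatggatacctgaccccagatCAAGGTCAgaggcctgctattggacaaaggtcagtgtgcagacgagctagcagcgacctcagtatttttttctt
The site begins 149 bases before the start of Defb8, 151 before that of Defb7 and 74 before that of Bhmt, in the forward orientation in all 3. Without gaps, the Defb7 and Defb8 stretches were 71.4% identical over 248 bases. On either strand, the site occurred in 11 of 509 genes called lower with a promoter sequence (2.16%), in 4 of 666 called higher (0.601%), in 187 of 14486 tested (1.29%) and in 408 of all 27025 genes with a promoter (1.51%). The SOX site AACAATGG occurred in 7 of 666 genes called higher (1.05%) and 7 of 509 called lower (1.38%), against 1.04% of all, and the palindromic estrogen response element in none of either, against 18 of all 27025. Such matches describe the letters in this window and are not evidence of binding.

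The loss of ERβ was set beside the same loss where ERα was present, Ex3bERKO against control, which uses the other 8 arrays. That comparison gave 249 called features (1.02%), 95 higher and 154 lower. Of these, 47 were called in both, which is 18.9% of the 249 and 2.49% of the 1889. The direction was the same for 9 of the 47 and opposite for 38. Star, Thbs4, Bhmt and Fkbp5 fell in both comparisons. In Ex3bERKO against control, Thbs4 fell by 2.85, Star by 2.63 and Bhmt by 3.78 on the log2 scale (limma adjusted p = 0.0185, 0.00952 and 0.0244). Cyp17a1 and Hsd17b3, in contrast, rose with ERβ loss in the presence of ERα, by 2.75 and 3.79 (limma adjusted p = 0.00297 and 0.0371), and fell with it in the absence of ERα. Sct, the hormone secretin, did the same, at 1.14 and -1.74 (limma adjusted p = 0.0275 and 0.000840). Whole lists differed in this respect. The cholesterol synthesis list had medians of -0.84 in Ex3bERKO against control and -0.75 in Ex3abERKO against Ex3aERKO. In the same order, the medians were 0.43 and 0.28 for the Sertoli list. They were 0.05 and -1.76 for the granulosa list, and -0.04 and -1.12 for the theca and Leydig list.

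**Figure D5:**
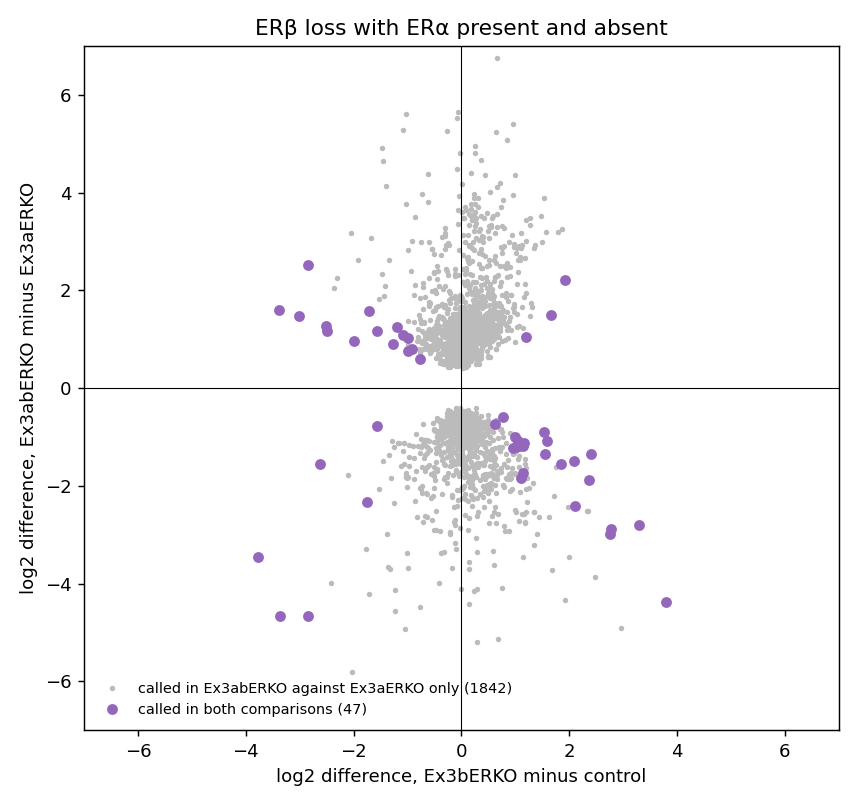
Log2 difference made by ERβ loss where ERα was absent (Ex3abERKO minus Ex3aERKO, vertical) against that where ERα was present (Ex3bERKO minus control, horizontal), for the 1889 features called in the former; purple points are the 47 called in both. Of the purple points, 38 lie at the upper left or lower right, where the signs are opposite.

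The difference between these differences, the interaction, was tested directly and called for 869 features (3.56%), 445 with a positive and 424 with a negative value. Of the 1889 features called in Ex3abERKO against Ex3aERKO, 570 (30.2%) had a called interaction, 280 of them higher and 290 lower in Ex3abERKO. The interaction contains the Ex3abERKO and Ex3aERKO arrays and is therefore not independent of the main comparison. Its largest named values were -8.29 ± 1.93 for Klk1b24, a glandular kallikrein (limma adjusted p = 0.0297), -8.17 ± 1.14 for Hsd17b3 (limma adjusted p = 0.00193), -7.87 ± 1.23 for Cstdc2 (limma adjusted p = 0.00365) and -7.03 ± 1.53 for Lcn2, the iron-carrier protein lipocalin (limma adjusted p = 0.0216). In each of these 4 genes the control mean was the lowest of the 4 groups, though for Cstdc2, at -2.32, it was close to that of Ex3abERKO, at -2.21. Klk1b24 and Lcn2 were not called in Ex3abERKO against Ex3aERKO (limma adjusted p = 0.291 and 0.152). For Cyp17a1 the interaction was -5.74 ± 0.54 (limma adjusted p = 0.000211), and for Rhox5 it was -4.22 ± 0.31 (limma adjusted p = 2.67e-05).

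Among supporting-cell genes, the interaction was called for Cst9 (5.0 ± 0.72, limma adjusted p = 0.00226), Etd (5.59 ± 0.73, limma adjusted p = 0.00158), Defb36 and Dmrt1, and for Fshr (-2.83 ± 0.54, limma adjusted p = 0.0111), Inhba, Gja1, Nr5a1 and Gata4. The rise of Sox9 was not shown to differ from that made by ERβ loss where ERα was present (1.42 ± 0.53, limma adjusted p = 0.180), and neither was that of Sox8 (0.20 ± 0.45, limma adjusted p = 0.901). The fall of Nr5a2 had no called interaction either, at -1.99 ± 0.52, which narrowly missed the threshold (limma adjusted p = 0.0501). Fewer features were called in the interaction without control 4 (504), control 3 (551), Ex3aERKO 1 (552), control 1 (561) or Ex3bERKO 3 (530), and more without Ex3abERKO 3 (1329). It was 252 without the 3 arrays that stood apart, and 340 under normexp, which shifted the median interaction over all features to 0.36.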

How the data were processed

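Total RNA of whole mouse ovary was labelled with Cy3 and hybridised to 16 single-colour Agilent arrays on 4 slides. The deposited intensity values are Feature Extraction's processed signals, background-subtracted within an array and not normalized between arrays, per the file headers; the submitters' processing notes name version 9.5. Each value was divided by its array's 75th percentile and log2 was taken of the deposited signal, with a floor of -8.88. Outlier spots were left out and saturated spots kept. Of 41174 probes, 36224 were well above background on at least 4 arrays; the brightest probe stood for its gene, which gave 24441 features, 18297 with a symbol. Names came from RefSeq (GRCm38.p6) by accession (22951 probes), current symbol (6659) or older symbol (3109), and 8455 probes had none. Probe coordinates are mm7, as in the files, counted from 1. Exons and untranslated regions of that build were not analysed here.

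limma 3.58.1 (R 4.3.3; lmFit and eBayes) was fitted over the 16 arrays as 4 group means, leaving 12 residual degrees of freedom, with two-sided p-values adjusted by Benjamini-Hochberg, and tested on simulated data. Where every array of a group is dim for a probe, only a bound is given. Replicate numbers are shared between groups, but deviations of same-numbered Ex3aERKO and Ex3abERKO arrays correlated at only 0.09, 0.11, 0.02 and 0.22, so the numbers were not taken as pairs.

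Members and the 33 gene lists (632 entries) were chosen with earlier results of these data known, and so give no independent support. Named genes were Esr1 and Esr2, the 12 largest rises and falls with a proper symbol, a signal above background throughout a group and the same direction on each shared slide, the 4 smallest p-values per list, 24 tested genes listed by symbol (Pgr did not pass the filter) and the 6 largest interactions; some genes that this rule names are not reported here. Other list members and Sct, Defb7 and Bhmt were named after their values were seen. Alternatives covered background correction, scaling, dim-probe filters, probe choice, slide and replicate blocks, array weights, the variance model, the arrays in the fit and each array left out. Promoters are the 250 bases before a RefSeq start, found for 78 of 103 genes, those named by this rule with Defb7 and Bhmt.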

Additional observations from a re-analysis of the deposited data

Results flagged for a closer look

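Levels on a single array were far from the other 3 of its group for 19 of 206 gene and group pairs looked at (9.22%), where chance alone gives about 1 in 20. The gap to the nearest other array is given as a share of the group's whole range, in each case above the 95% critical value of Dixon for 4 samples. On Ex3aERKO 4 the level was high for Klhl31 (0.84), Thbs4 (0.876), Mpped2 (0.847), Bmp3 (0.853) and Ihh (0.867), and low for Esr1 (0.833), Dkk3 (0.956), Sfrp1 (0.85), Gli3 (0.853), Insl3 (0.908), Wt1 (0.871) and Wnt4 (0.918). Ex3aERKO 1 was high for Cd5 (0.974) and low for Retn (0.832), and Ex3aERKO 2 was high for Star (0.908). Ex3abERKO 3 was low for Sostdc1 (0.869) and Bmp2 (0.88) and high for Pcna (0.872) and Wt1 (0.885). Array weights estimated by limma were lowest for Ex3abERKO 3 (0.197) and Ex3aERKO 4 (0.456), but were 1.1 for Ex3aERKO 1 and 1.27 for Ex3aERKO 2.

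Limma's interaction was called for 46 of the 103 named genes, positive for 22 and negative for 24, against 3.56% of all features. Many named genes were chosen by the main difference, which the interaction contains, or by the interaction itself. Their share is therefore raised by that choice and gives no separate support. The labels do not give the alleles of the other receptor in the single knockouts, so the interaction compares groups as labelled. Positive values for testis or Sertoli genes were those of Etd (5.59), Cst9 (5.0), Defb36 (3.06), Dmrt1 (2.76), Cstdc1 (5.71) and Ott (4.55). Positive values for fat, lymphoid and stroma genes were those of Cfd (6.64), Adipoq (6.39), Slc7a10 (6.10), Igkv3-12 (5.52), Glycam1 (4.46), Col1a1 (1.94) and Pdgfrb (1.46). Other positive values were those of Vsig1 (4.60), Reg3g (4.24), Csn1s2a (4.84), Rgcc (3.31), Cyp26a1 (2.28), Aldh1a3 (1.92), Dkk3 (2.61), Fzd1 (2.24) and Tal1 (1.55). Negative values for steroid, theca or Leydig genes were those of Hsd17b3 (-8.17), Cyp17a1 (-5.74), Insl3 (-6.63), Aldh1a1 (-1.62) and Hsd11b2 (-2.35). Jak3, whose probe lies next to that of Insl3, had -6.66. Granulosa, supporting-cell and hormone response genes with negative values were Inhba (-2.78), Fshr (-2.83), Gja1 (-2.18), Nr5a1 (-1.75), Gata4 (-1.98), Bmp2 (-2.02), Rhox5 (-4.22) and Greb1 (-2.22). The remaining negative values were those of Klhl31 (-5.82), Ccdc3 (-3.88), Cstdc2 (-7.87), Mpped2 (-3.71), Defb8 (-4.54), Ibsp (-6.27), Bpifb4 (-4.39), Klk1b24 (-8.29), Lcn2 (-7.03) and Defb7 (-4.86). Dmrt1 and Reg3g were not above background on any array outside Ex3abERKO, nor Defb7 on any control array and Ibsp on any Ex3abERKO array, so their interaction values are log2 differences against background and not exact sizes.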

How the results depend on the processing

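Of the 91 named genes called in Ex3abERKO against Ex3aERKO, 38 kept their call and direction under all 29 other settings in which each was measured, and none reversed. The only named gene whose sign changed was Amh, never called, whose difference ranged from -0.39 without Ex3aERKO replicate 4 to 0.0544 without Ex3aERKO replicate 2. Features called in Ex3abERKO against Ex3aERKO numbered 743 under normexp, 604 from only the arrays compared, 843 without Ex3aERKO 2, Ex3abERKO 2 and control 4 (3 arrays chosen after seeing the data for their liver, oviduct or erythroid genes) and 1107 to 2268 when each array was left out in turn. Those of the interaction numbered 340, 1715 with array weights, 252 without the 3 arrays and 504 to 1329 in turn. Those of Ex3bERKO against control numbered 151 under normexp, 85 from only the arrays compared, 800 with array weights, 63 without the 3 arrays and 111 to 366 in turn. The share called higher moved under normexp from 51.2% to 61.8% for the interaction and from 38.2% to 27.8% for Ex3bERKO against control, where it shifted the medians of all features by 0.36 and -0.27. With the replicate number as a block, the counts were 1585, 695 and 213, and 84 of the 91 named genes kept their call. With the slide as a fixed block 85 of the 91 did. Dim genes are limited by their signal over background: 27 of the 91 lost their calls under normexp, Dmrt1, Sox8, Reg3g, Ibsp, Bpifb4, Defb7 and Slc7a10 among them.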
